A study of Mus musculus with 8 samples.

Results

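Transcripts of 10 histone chaperone genes were followed through RNA-seq of mouse E14 embryonic stem cells, a line that keeps the pluripotency of the inner cell mass in culture. The genes were taken by symbol and matched to Ensembl identifiers in both deposited count tables, where they are 10 of 54232 genes. They are Ssrp1 and Supt16, the subunits of FACT; Supt6; Chaf1a and Chaf1b, subunits of CAF-1; the paralogues Asf1a and Asf1b; Hira; Daxx; and Nap1l1. Polyadenylated RNA was sequenced from 8 libraries in 4 groups of 2. Ssrp1_Control libraries, labelled with the genotype control, were compared with Ssrp1_KO libraries, named here by that label, in which Cas9 and a guide RNA had targeted Ssrp1. Usp7_Control libraries, also labelled control, were compared with Usp7_KD libraries, in which an shRNA against Usp7, a deubiquitinase, was delivered in the pSuper puro plasmid. Per the labels' protocols the transfection used 1000 ng of plasmid, and puromycin at 1 ug/ml was given 24 h later for 3 days. All cells carry the strain label 12910la and grew in serum with LIF. Whether the Ssrp1 controls are the parental line or an edited clone, how many knockout clones were used, which exon was cut, and whether the Usp7 controls received an empty plasmid are not stated in the labels.

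Histone chaperones bind histones that are outside nucleosomes and hand them on to DNA or to each other. FACT and the elongation factor Supt6 loosen and rebuild nucleosomes around RNA polymerase II, CAF-1 deposits new H3-H4 behind replication forks, and Asf1 proteins carry H3-H4 to CAF-1 or to the Hira complex. Hira and Daxx place the variant H3.3 independently of replication, Hira at active genes and Daxx with Atrx at silent repeats, while Nap1l1 shuttles H2A-H2B. In embryonic stem cells loss of CAF-1 is known to raise the number of cells that resemble the 2-cell embryo.

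Total counts ranged from 15879056 to 18361130 per library. All 10 stem cell markers examined were detected in every library, with summed levels of 5279 to 11428 CPM (counts scaled to a common library total with TMM factors over all 8 libraries), and Pou5f1, Nanog and Sox2 were among them. Fibroblast markers summed to 16.6 to 57.4 CPM, with up to 4 of 8 at 0 in a library. The 2-cell-like markers summed to 59.9 and 127 CPM in the Ssrp1 controls and to 653 and 1243 CPM in the Ssrp1_KO libraries, against 19.0 to 51.3 CPM in the Usp7 experiment. Usp7 libraries 1 and 2 stood at 41.4 and 19.0 CPM (controls) and at 51.3 and 34.0 CPM (Usp7_KD), which overlap. These sums are weighted towards Calcoco2, which was not called there. Scaled within that experiment, its mean went from 28.0 to 21.4 CPM, a log2 change of -0.39. The 2-cell-like markers were chosen with earlier results of these data known, so their counts of calls are a description only. All 10 of them were called higher in the knockout, where 3.39% of all genes tested were. In the knockdown 5 of the 7 tested were called higher, where 2.36% of all genes were. Changes were above 0 for 6 of these 7, with a median of 2.50. The 5 called were scarce on the scale of that experiment. Their means were 0.147 to 1.06 CPM in the controls and 1.30 to 7.28 CPM in the Usp7_KD libraries. Mitochondrially encoded genes took 0.732% and 0.776% of the counts in the Ssrp1 controls, 7.31% and 2.81% in Ssrp1_KO libraries 1 and 2, and 1.67% to 2.44% in the Usp7 experiment. The part of these differences in the chaperone results below was not tested. The labels do not say whether the libraries of a group are separate cultures. P-values therefore reflect the spread of these libraries alone, which may be technical. In bulk RNA, fewer cells of a type and less RNA per cell cannot be told apart.

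The promoters of Nap1l1, Chaf1b and Chaf1a are printed because Nap1l1 and Chaf1b are the members whose level passed the test in an experiment, and Chaf1a encodes the partner of Chaf1b in CAF-1. The windows reach up to 250 bases before the RefSeq start site (GRCm38.p6) nearest to the annotated gene start, and bases inside the annotated gene are not printed. Capitals mark a core of the E2F motif, searched as TTCCCGC, with the variants TTGGCGC, then TTCGCGC, and also TTGCCGC. They also mark the CCAAT box, searched as CCAAT. Both motifs were searched on either strand. E2F factors drive genes of DNA replication and S phase, and the CCAAT box is the motif of the factor NF-Y. The sequences run 5′ to 3′ on the gene's strand.
Nap1l1, chr10:111472977-111473222, plus strand: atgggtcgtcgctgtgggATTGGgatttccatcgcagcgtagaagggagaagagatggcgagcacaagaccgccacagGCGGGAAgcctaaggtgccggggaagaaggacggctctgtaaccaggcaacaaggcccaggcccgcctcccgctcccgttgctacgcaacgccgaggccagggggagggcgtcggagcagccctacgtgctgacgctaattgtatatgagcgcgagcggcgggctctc
Chaf1b, chr16:93883651-93883900, plus strand: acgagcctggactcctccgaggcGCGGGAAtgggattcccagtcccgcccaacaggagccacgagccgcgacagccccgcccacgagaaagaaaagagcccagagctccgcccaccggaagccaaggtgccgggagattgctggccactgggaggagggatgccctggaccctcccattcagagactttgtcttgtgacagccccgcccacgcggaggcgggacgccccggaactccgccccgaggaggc
Chaf1a, chr17:56040166-56040415, plus strand: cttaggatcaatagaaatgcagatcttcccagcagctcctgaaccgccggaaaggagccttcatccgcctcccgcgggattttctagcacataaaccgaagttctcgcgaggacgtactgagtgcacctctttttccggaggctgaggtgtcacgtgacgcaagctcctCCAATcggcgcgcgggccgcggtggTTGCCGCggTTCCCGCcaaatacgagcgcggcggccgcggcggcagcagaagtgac
An E2F core stood in the 250-base windows of 3 of the 10 members, these 3 genes, and in 7.89% of 32851 RefSeq promoter windows of the same length. Chaf1a held 2 cores, with first bases 56 and 47 bases before the start, while the core of Chaf1b began 227 bases and that of Nap1l1 172 bases before it. A CCAAT box stood in the windows of Asf1b, which held 4, and of Asf1a, Daxx, Chaf1a and Nap1l1, which held 1 each, against 33.8% of all windows. The motifs did not overlap each other in the printed windows. They were chosen with the results known, and a match is a description of the sequence, not a bound site.

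In the Ssrp1 experiment Nap1l1 transcripts rose 2.95-fold, and none of the other 9 members passed the test. Calls below stand for an adjusted p under 0.05 in edgeR's quasi-likelihood test with Benjamini-Hochberg adjustment over all genes. Calls were made for 1 member higher and 0 lower, where 3.71% of the 15757 genes tested were called, 3.39% higher and 0.324% lower. The log2 changes of the members were above 0 for 4 and below 0 for 6, with a median of -0.13 beside 0.03 over all genes tested. Libraries of the 2 groups did not overlap for 5 members, 3 higher and 2 lower, where 50.0% of all genes did not overlap, 27.3% higher and 22.7% lower. All 10 members passed the filter on low counts, with 304 counts in a library for the scarcest, Hira, and 17566 for the most abundant, Nap1l1.

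In the Usp7 experiment Chaf1b transcripts fell 1.79-fold, and no other member passed the test. Calls were made for 0 members higher and 1 lower, where 2.99% of the 15915 genes tested were called, 2.36% higher and 0.628% lower. Changes were above 0 for 4 members and below 0 for 6, with a median of -0.21 beside -0.02 over all genes. Libraries did not overlap for 3 members, Ssrp1, Chaf1b and Nap1l1, all lower, where 48.0% of all genes did not overlap, 24.6% higher and 23.4% lower. These counts depended on the libraries used: without Ssrp1_KO replicate 1 the knockout call count was 2, and without Ssrp1_Control replicate 1 it was 0. In the Usp7 experiment it was 5 without Usp7_Control replicate 2 and 0 without either Usp7_KD replicate 1 or replicate 2.

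**Figure D1:**
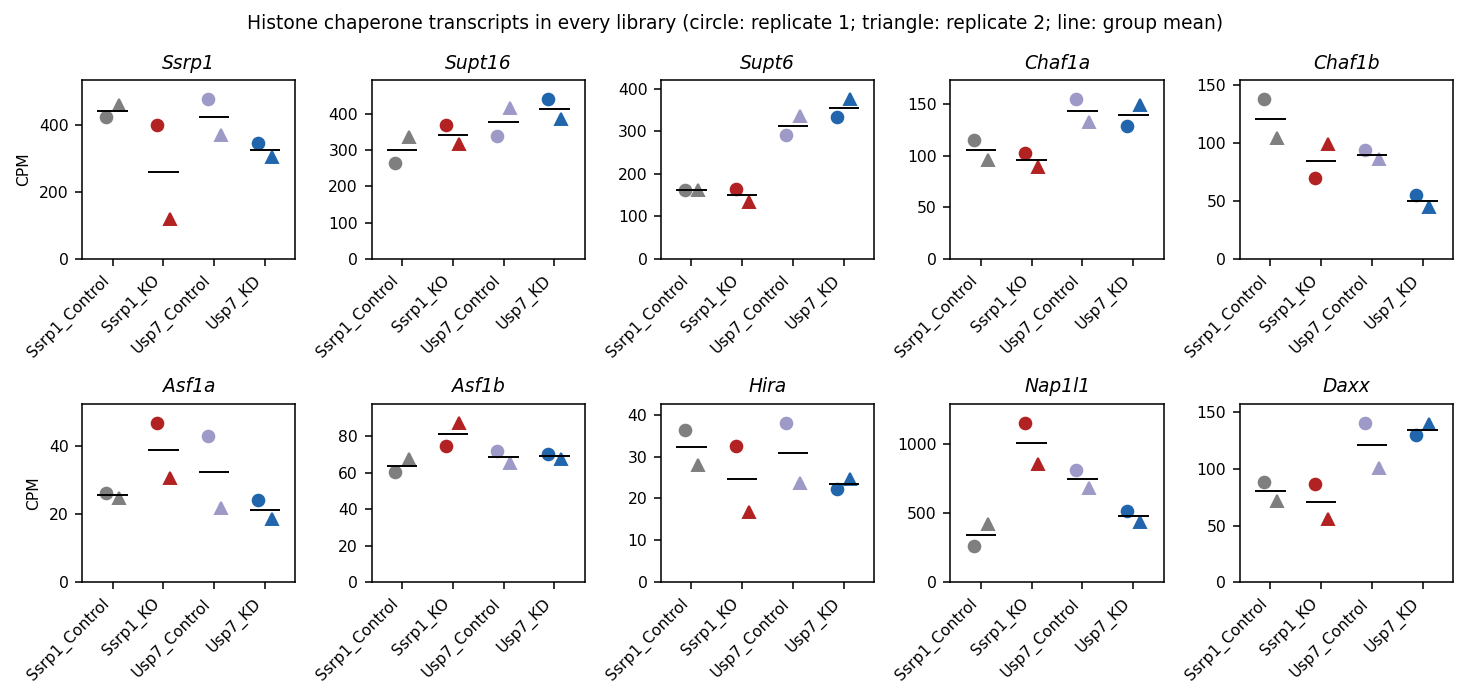
CPM (linear axis, scaled within each experiment) of the 10 chaperone genes in 8 libraries, with circles for replicate 1, triangles for replicate 2 and lines for group means. Nap1l1 is at 1156 and 857 CPM in the Ssrp1_KO libraries and at 263 and 419 CPM in their controls, and Ssrp1 is low in only 1 Ssrp1_KO library, at 119.7 CPM.

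**Figure D2:**
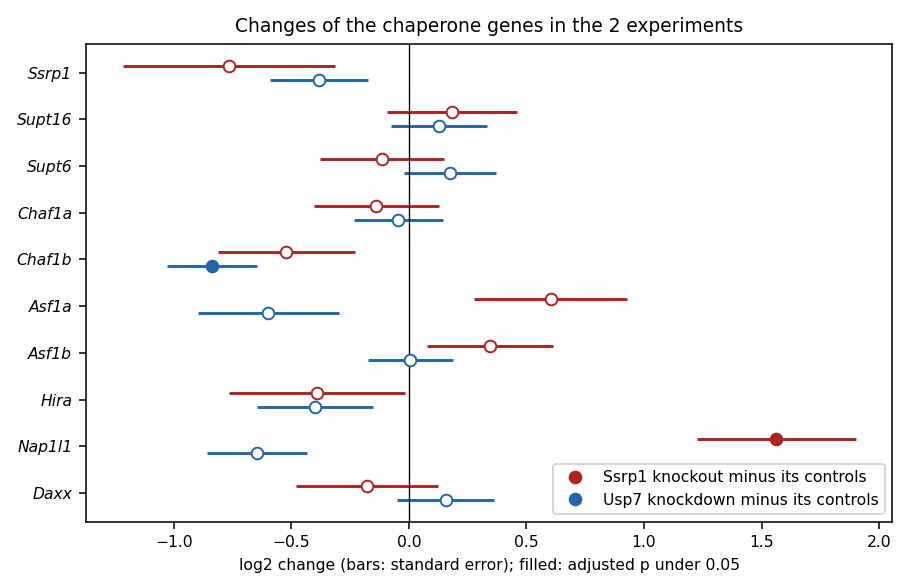
Log2 change of each chaperone gene in the Ssrp1 knockout and Usp7 knockdown comparisons; points are estimates, bars are standard errors and filled points passed an adjusted p of 0.05. Nap1l1 is the filled point at 1.56 in the knockout and Chaf1b the filled point at -0.84 in the knockdown.

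FACT consists of Ssrp1, whose HMG box binds DNA, and Supt16, which contacts both H2A-H2B and H3-H4. In the mouse build mm10 Ssrp1 (ENSMUSG00000027067) lies on chromosome 2 from 85037234 to 85047109. Supt16 (ENSMUSG00000035726) lies on chromosome 14 from 52160414 to 52197416. Ssrp1, the gene targeted in the knockout, had 423 and 460.0 CPM in its control libraries. The library labelled Ssrp1_KO 1 had 399.6 CPM, 90.5% of the control mean, and the library labelled Ssrp1_KO 2 had 119.7 CPM, 27.1% of it. Both lay below both controls, but the first lay close to them and the second far below. Their gap of -1.73 on the log2 scale (replicate 2 minus replicate 1) was larger in size than that of 96.7% of genes tested, where the median size was 0.40. The change was -0.77 on the log2 scale (SE 0.45, adjusted p = 0.411), which did not pass the test. Without Ssrp1_KO replicate 1 it was -1.94 with an adjusted p of 0.0021, and without Ssrp1_KO replicate 2 it was -0.15 with an adjusted p of 0.900. A guide RNA can leave a frameshifted transcript that is still counted, so a gene count need not fall in a knockout. Whether this applies to Ssrp1_KO 1, or whether its cells kept an intact gene, was not tested. The label of Ssrp1_KO 1 was therefore not checked by its Ssrp1 count, and each knockout result below rests in part on that library.

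In the other experiment Ssrp1 stood at 477 and 370.4 CPM in the controls, against 346 and 305 CPM in the Usp7_KD libraries. Both knockdown libraries were lower than both controls, by -0.38 on the log2 scale (SE 0.21, adjusted p = 0.396), which did not pass the test. Without Usp7_Control replicate 2, the lower control, the change was -0.56 with an adjusted p of 0.0201, and without Usp7_Control replicate 1 it was -0.18 (adjusted p = 0.615). Usp7 itself had 386 and 381 CPM in its controls and 117 and 128 CPM in the Usp7_KD libraries. It fell by 1.64 on the log2 scale (SE 0.19, adjusted p = 0.00124), to 30.5% and 33.5% of the control mean, while its knockout change was -0.07 with an adjusted p of 0.933.

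Supt16 levels overlapped between groups in both experiments. Its values were 265 and 337 CPM in the Ssrp1 controls, against 368 and 316 CPM in the Ssrp1_KO libraries. The Usp7 controls had 339 and 416 CPM, and the Usp7_KD libraries had 439 and 385 CPM. The changes were 0.18 (SE 0.28, adjusted p = 0.787) and 0.13 (SE 0.20, adjusted p = 0.806). In Ssrp1_KO 2, where Ssrp1 was at 27.1% of its control mean, Supt16 lay between its 2 control values.

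The ratio of Ssrp1 to Supt16 normalised counts per kilobase of exon was computed within each library. It was 2.16 and 1.84 in the Ssrp1 controls, 1.46 and 0.512 in Ssrp1_KO 1 and 2, 1.90 and 1.20 in the Usp7 controls, and finally 1.06 and 1.07 in the Usp7_KD libraries. In both experiments the perturbed libraries had the lower ratios and the groups did not overlap. The share of other gene pairs without overlap was not computed, and for single genes it was 50.0% and 48.0%. With 2 libraries a group, a two-sided exact permutation test cannot go below p = 0.333, so no test is given. An exon stretch of 51 bases of Ssrp1 is shared with P2rx3 and 1057 bases of Supt16 with Rpgrip1, both on the opposite strand. These neighbours had at most 32 and 125 counts in a library, against at least 2182 for Ssrp1 and 4032 for Supt16.

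**Figure D3:**
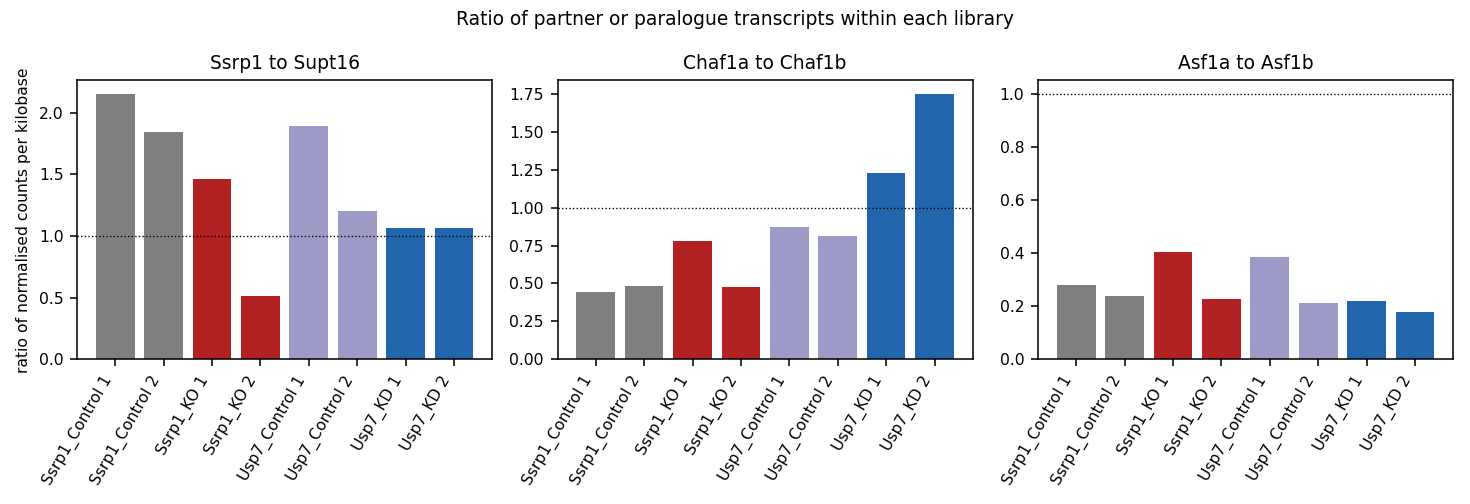
Ratio of normalised counts per kilobase (linear axis, dotted line at equal levels) for 3 pairs of partner or paralogue genes, 1 bar per library. Ssrp1 to Supt16 reaches its lowest value, 0.512, in Ssrp1_KO 2, and Chaf1a to Chaf1b its highest, 1.23 and 1.75, in the Usp7_KD libraries.

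The protein-coding genes whose pattern over the 8 libraries was nearest to that of Ssrp1 were Sall1, Chrna9 and Jade2, of 9008 genes with a mean CPM of at least 10. Likeness was the root mean square difference of log2 CPM taken relative to the mean of the experiment's own controls, which was 0.159, 0.179 and 0.182. Sall1 had 201 and 205 CPM in the Ssrp1 controls, 186 and 44.0 CPM in Ssrp1_KO 1 and 2, 347 and 342 CPM in the Usp7 controls, and 307 and 279 CPM in the Usp7_KD libraries. Like Ssrp1 it was low in Ssrp1_KO 2 and near the controls in Ssrp1_KO 1. Hira was the nearest member, at rank 100 with 0.384, and Supt16 was at rank 5146. The genes nearest to Supt16 were Cspp1, Hmmr and Lrig2, with 0.0462, 0.0603 and 0.0614, and Ssrp1 was at rank 8510 for Supt16.

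Supt6, which travels with elongating polymerase and binds H3-H4, had higher levels in all 4 libraries of the Usp7 experiment than in the 4 of the Ssrp1 experiment. Supt6 (ENSMUSG00000002052) lies on chromosome 11 from 78206746 to 78245987 of mm10. It had 161 and 161 CPM in the Ssrp1 controls, against 165 and 133 CPM in the Ssrp1_KO libraries. The Usp7 controls had 291 and 336 CPM and the Usp7_KD libraries 333 and 375 CPM. The groups overlapped within each experiment, and the changes of -0.11 (SE 0.26, adjusted p = 0.871) and 0.18 (SE 0.20, adjusted p = 0.704) did not pass the test. Supt6 shares 242 exon bases with Sdf2 on the opposite strand, which had 523 to 764 counts against 2426 to 6824 for Supt6.

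CAF-1 is made of Chaf1a, which binds PCNA at the fork, Chaf1b, a WD-repeat subunit that binds H3-H4, and the shared subunit Rbbp4. Chaf1a (ENSMUSG00000002835) lies on chromosome 17 from 56040439 to 56072289, and Chaf1b (ENSMUSG00000022945) lies on chromosome 16 from 93883901 to 93906115. Chaf1b had 93.8 and 86.3 CPM in the Usp7 controls, against 55.6 and 45.1 CPM in the Usp7_KD libraries. Both Usp7_KD libraries were below both controls. The mean went from 90.1 ± 5.34 CPM to 50.4 ± 7.40 CPM (SD, n = 2 libraries each), a fall of 1.79-fold or -0.84 on the log2 scale (SE 0.19, adjusted p = 0.0437). The call was lost with no filter on low counts (adjusted p = 0.163), in the joint fit of 8 libraries (0.242) and without Usp7_KD replicate 1 (0.193) or replicate 2 (0.887), with changes of -0.998 to -0.70. Over all of its alternatives the change kept its sign.

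In the Ssrp1 experiment Chaf1b had 138 and 105 CPM in the controls, against 69.9 and 99.1 CPM in the Ssrp1_KO libraries. Both Ssrp1_KO libraries were again below both controls, with the lower value in Ssrp1_KO 1. The change of -0.52 (SE 0.29, adjusted p = 0.385) did not pass the test, and the difference between the experiments was 0.26 (SE 0.35, adjusted p = 0.792). On the common scale the summed level of 20 S-phase genes was 7146 and 5468 CPM in the Ssrp1 controls, against 4672 and 4942 CPM in the Ssrp1_KO libraries. In the Usp7 experiment it was 6059 and 5030 CPM in the controls, against 4582 and 3998 CPM in the Usp7_KD libraries. These sums were lower in the perturbed libraries of both experiments without overlap, and their part in the Chaf1b result was not tested. A sum is weighted towards the abundant genes. The median log2 change of the 20 genes was -0.11 in the knockout, with 7 above 0, and -0.35 in the knockdown, with 1 above 0.

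Chaf1a levels overlapped between groups in both experiments. They were 115 and 96.0 CPM in the Ssrp1 controls, against 103 and 88.8 CPM in the Ssrp1_KO libraries. The Usp7 controls had 155 and 132 CPM and the Usp7_KD libraries 129 and 149.7 CPM. The changes were -0.14 (SE 0.27, adjusted p = 0.840) and -0.04 (SE 0.19, adjusted p = 0.934). Of its 8854 exon bases, 4648 are shared with Ubxn6 on the opposite strand, which had 731 to 1043 counts against 1567 to 2726 for Chaf1a. Reads of the pair cannot be told apart where the counting strand is not given.

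The Chaf1a to Chaf1b ratio per kilobase was 0.873 and 0.812 in the Usp7 controls, against 1.23 and 1.75 in the Usp7_KD libraries. It was 0.441 and 0.486 in the Ssrp1 controls and 0.780 and 0.474 in Ssrp1_KO 1 and 2. The groups were separate in the Usp7 experiment and overlapped in the Ssrp1 experiment. How many other gene pairs separate in the Usp7 experiment was not computed, and 48.0% of single genes did. The absolute value of this ratio depends on the lengths used, since both genes have exons outside their principal transcripts, but the order of libraries does not.

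Asf1a and Asf1b bind an H3-H4 dimer in the same way, and Asf1b is the form known for its tie to proliferation. Asf1a (ENSMUSG00000019857) lies on chromosome 10 from 53596757 to 53609225, and Asf1b (ENSMUSG00000005470) lies on chromosome 8 from 83955507 to 83970197. Asf1a had 26.2 and 24.9 CPM in the Ssrp1 controls, against 46.9 and 30.7 CPM in the Ssrp1_KO libraries. Both Ssrp1_KO libraries were higher than both controls, by 0.60 on the log2 scale (SE 0.33, adjusted p = 0.367), which did not pass the test. With a correction for GC content and length the change turned to -0.57. Asf1a of the Usp7 experiment had 43.0 and 21.7 CPM in the controls, against 24.2 and 18.6 CPM in the Usp7_KD libraries. These groups overlapped, and the change was -0.60 (SE 0.30, adjusted p = 0.349). Without Usp7_Control replicate 2 it was -1.02 with an adjusted p of 0.000143, and without Usp7_Control replicate 1 it was -0.019 (adjusted p = 0.975). It was also called with the replicate block and the GC and length correction together, at -0.67 (adjusted p = 0.0145). Asf1a shares 1748 exon bases with Mcm9 on the opposite strand, whose counts of 230 to 358 are not far below the 339 to 730 of Asf1a.

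Asf1b had 60.5 and 67.4 CPM in the Ssrp1 controls, against 74.9 and 87.5 CPM in the Ssrp1_KO libraries. These groups did not overlap, but the change of 0.34 (SE 0.27, adjusted p = 0.556) did not pass the test. Asf1b values of the Usp7 experiment were 72.0 and 65.5 CPM in the controls, against 70.3 and 67.8 CPM in the Usp7_KD libraries, a change of 0.01 (SE 0.18, adjusted p = 0.988). The knockdown values lay between the control values. The Asf1a to Asf1b ratio per kilobase lay between 0.176 and 0.403 in all 8 libraries, so Asf1b was the more abundant paralogue in each of them.

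Hira is the scaffold of the complex that places H3.3 at active genes. Hira (ENSMUSG00000022702) lies on chromosome 16 from 18877037 to 18970309. It had 36.4 and 27.9 CPM in the Ssrp1 controls, against 32.4 and 16.7 CPM in the Ssrp1_KO libraries. The groups overlapped, and the lowest value was in Ssrp1_KO 2, the library with the lowest Ssrp1 level. Among Usp7 libraries Hira had 38.1 and 23.7 CPM in the controls, against 22.3 and 24.5 CPM in the Usp7_KD libraries. The changes of -0.39 (SE 0.38, adjusted p = 0.643) and -0.40 (SE 0.25, adjusted p = 0.456) did not pass the test. Without Usp7_Control replicate 2 the knockdown change was -0.71 with an adjusted p of 0.00534, and without Usp7_Control replicate 1 it was -0.015 (adjusted p = 0.978). Of its 6215 exon bases 2778 are shared with Gm28539 on the same strand, which had 0 counts. How reads over shared bases were counted is not given in the sources used here, so the level of Hira may be understated.

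Daxx deposits H3.3 at repeats together with Atrx. Daxx (ENSMUSG00000002307) lies on chromosome 17 from 33909414 to 33915590. It had 88.5 and 72.1 CPM in the Ssrp1 controls, against 86.6 and 55.4 CPM in the Ssrp1_KO libraries. The Usp7 controls had 141 and 101 CPM and the Usp7_KD libraries 130.2 and 139.6 CPM. Groups overlapped in both experiments, and the changes of -0.18 (SE 0.30, adjusted p = 0.815) and 0.16 (SE 0.21, adjusted p = 0.752) did not pass the test. The Hira to Daxx ratio per kilobase was 0.209 and 0.196 in the Ssrp1 controls, 0.190 and 0.153 in the Ssrp1_KO libraries, 0.137 and 0.119 in the Usp7 controls, and finally 0.0868 and 0.0891 in the Usp7_KD libraries. It was below 1 in every library and lower in the perturbed libraries of both experiments without overlap. The share of other gene pairs that separate this way was not computed. Among single genes 50.0% and 48.0% did not overlap in the 2 experiments. The Hira to Chaf1a ratio overlapped in the Ssrp1 experiment, at 0.451 and 0.414 in the controls and 0.448 and 0.268 in Ssrp1_KO 1 and 2. In the Usp7 experiment it was 0.350 and 0.255 in the controls and 0.246 and 0.234 in the Usp7_KD libraries.

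Nap1l1, the H2A-H2B chaperone, had the largest change of the 10 members in the knockout. Nap1l1 (ENSMUSG00000058799) lies on chromosome 10 from 111473223 to 111498150. It had 263 and 419 CPM in the Ssrp1 controls, against 1156 and 857 CPM in the Ssrp1_KO libraries. Both Ssrp1_KO libraries were above both controls, at 339% and 252% of the control mean. The mean went from 341 ± 110.2 CPM to 1006 ± 211 CPM (SD, n = 2 libraries each), a rise of 2.95-fold or 1.56 on the log2 scale (SE 0.34, adjusted p = 0.0325). The call held without Ssrp1_KO replicate 1, whose Ssrp1 count was near the controls, at 1.28 (adjusted p = 0.0481), and without Ssrp1_KO replicate 2 at 1.76 (adjusted p = 0.000811). It was lost without Ssrp1_Control replicate 1, at 1.25, and with the correction for GC content and length, at 0.66 (adjusted p = 0.265). That correction together with the replicate block lost it too, and 8 of 11 alternatives kept it. The 2-cell-like sum and the mitochondrial share were also higher in both Ssrp1_KO libraries. Nap1l1 was highest in Ssrp1_KO 1, which had the lower 2-cell-like sum of the pair, 653 CPM, and the higher mitochondrial share, 7.31%, and the part of either in the result was not tested.

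The GC correction bears on Nap1l1 and Asf1a in particular. The longest transcript of Nap1l1 is 39.8% GC and that of Asf1a 38.6%, both in the lowest decile of the genes tested, which spans 29.6% to 41.4%. In the Ssrp1 experiment the 1573 genes of that decile had a median log2 change of 0.99, with quartiles of 0.42 and 1.74, and 239 of them were called higher. Nap1l1 at 1.56 lay above that median and inside the quartiles, and Asf1a at 0.60 lay below the median and inside them. The decile with the highest GC content had a median of -0.18. The other 8 members ranged from 45.7% GC for Supt16 to 56.3% for Daxx. In the Usp7 experiment the lowest decile had a median of 0.07 and the highest one of -0.11. In the difference between the experiments, given below, the lowest decile had a median of 0.85, with quartiles of 0.21 and 1.66. For the Usp7 controls minus the Ssrp1 controls its median was 0.64, with quartiles of 0.016 and 1.49.

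**Figure D4:**
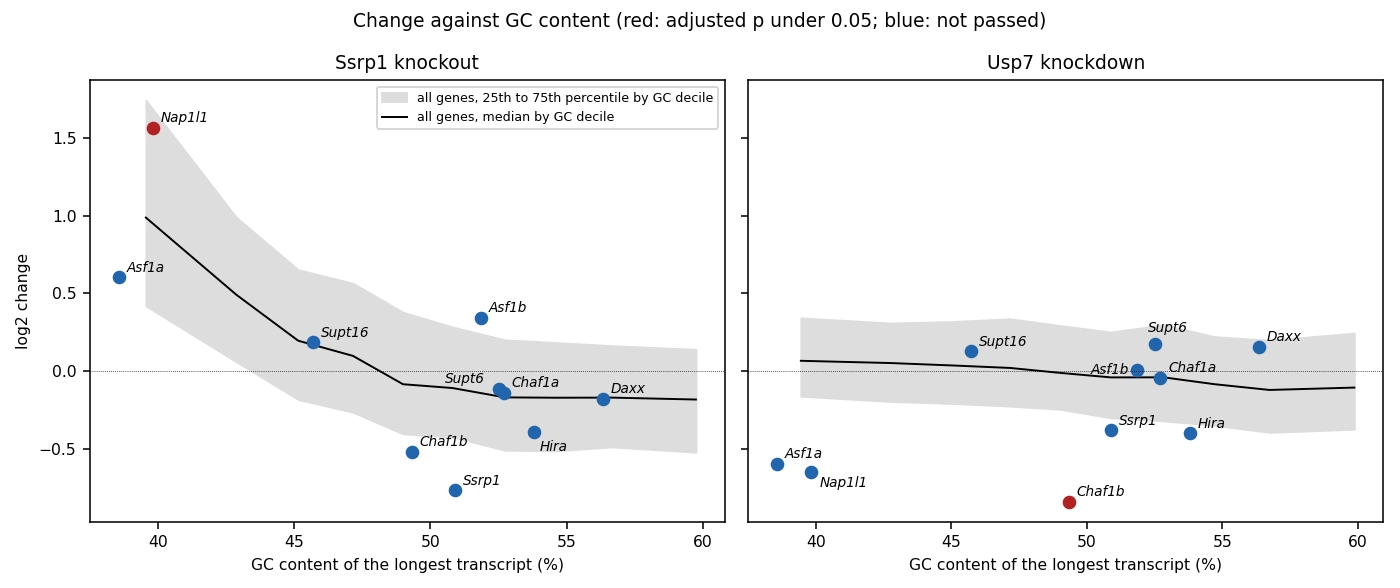
Log2 change of the 10 members against the GC content of the longest transcript, with the median (line) and the 25th to 75th percentile (grey) of all genes tested by deciles of GC content. Nap1l1 and Asf1a lie at the low-GC end, where the median of all genes is 0.99 in the Ssrp1 knockout and 0.07 in the Usp7 knockdown.

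In the Usp7 experiment Nap1l1 had 815 and 685 CPM in the controls, against 519 and 439.6 CPM in the Usp7_KD libraries. Both Usp7_KD libraries were below both controls, with a mean of 750.2 ± 92.2 CPM against 479 ± 56.4 CPM (SD, n = 2 libraries each). The change of -0.65 (SE 0.21, 1.56-fold lower, adjusted p = 0.152) did not pass the test. It passed under DESeq2 at -0.66 (adjusted p = 0.0357) and without Usp7_Control replicate 2 at -0.78 (adjusted p = 0.00252). It also passed with the replicate block at -0.65 (adjusted p = 0.0212), and with the block and the GC and length correction together at -0.79 (adjusted p = 0.00102).

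The knockout change of Nap1l1 differed from its knockdown change by 2.17 on the log2 scale (SE 0.39, 4.49-fold, adjusted p = 0.0295), fitted jointly over 8 libraries with the knockdown change subtracted from the knockout change. Nap1l1 was the only member called in that comparison, higher, where 1.00% of 17052 genes were called, 0.610% higher and 0.393% lower. The comparison uses the libraries of both others, so it gives no separate support for either change. The largest difference among the other members was that of Asf1a, 1.15 (SE 0.48, adjusted p = 0.285), and those of the remaining 8 lay between -0.43 for Ssrp1 and 0.29 for Asf1b. The Nap1l1 call was lost with the correction for GC content and length, at 1.46 (adjusted p = 0.0852), and was made with that correction and the replicate block together, at 1.45 (adjusted p = 0.0224). It was also lost without Ssrp1_Control replicate 1 (1.89, adjusted p = 0.126), Usp7_Control replicate 1 (2.01, 0.114) or 2 (2.26, 0.0719), and Usp7_KD replicate 1 (2.27, 0.148) or 2 (2.01, 0.263).

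The 2 control groups were compared in the same joint fit, as Usp7_Control minus Ssrp1_Control, to give the size of differences between cells labelled control. The experiment, the culture and the library preparation cannot be told apart there, and the comparison shares its control libraries with those above. Supt6 was called higher and 0 members lower, where 7.98% of all genes were called, 3.92% higher and 4.06% lower. On the common scale Supt6 had 172 ± 5.70 CPM in the Ssrp1 controls and 298 ± 26.4 CPM in the Usp7 controls (SD, n = 2 libraries each), a difference of 0.80 (SE 0.21, 1.74-fold, adjusted p = 0.0435). Without Ssrp1_Control replicate 1 (0.82, adjusted p = 0.229) or 2 (0.75, 0.116), or Usp7_Control replicate 1 (0.88, 0.0898) or 2 (0.68, 0.256), the Supt6 difference was no longer called. The call was also lost without Usp7_KD replicate 1 (0.78) or 2 (0.78), which enter through the shared spread, and with the GC and length correction (0.72, adjusted p = 0.0834). It was lost as well with DESeq2 size factors, with the replicate block, and with the block and that correction together. Of 14 alternatives 4 kept it. Nap1l1 had 362 ± 105 and 716 ± 97.0 CPM, a difference of 0.98 (SE 0.27, adjusted p = 0.0501), just outside the threshold. The control groups did not overlap for 4 members, 2 higher and 2 lower, where 56.8% of all genes did not overlap, 29.6% higher and 27.2% lower. The difference between control groups in Nap1l1 was 0.42 with the GC and length correction.

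Levels were compared between genes only per kilobase of exon, on the common scale of the 8 libraries. In the Ssrp1 controls Ssrp1 was the most abundant member at 126 ± 3.15 CPM per kilobase, followed by Nap1l1 at 72.4 ± 21.1 and Supt16 at 63.5 ± 8.64, whose ranges overlapped. In the other 3 groups Nap1l1 was the highest, at 208 ± 43.8 in the Ssrp1_KO, 143 ± 19.4 in the Usp7_Control and 91.5 ± 10.7 in the Usp7_KD libraries. Its range overlapped that of Ssrp1, at 83.0 ± 7.49, in the Usp7_KD libraries. As counted, Hira was the lowest in every group, between 3.59 ± 0.248 in the Usp7_KD and 5.54 ± 1.22 in the Ssrp1_Control libraries. Its level may be understated because of the bases shared with Gm28539, so its order against Asf1a is not settled. Asf1a was next above Hira in every group, at 5.60 ± 1.02 to 11.0 ± 3.25, and the ranges of the 2 genes overlapped in the Usp7 controls. With the length of the longest principal transcript in place of all exons, Chaf1a was next above Hira in the Ssrp1_KO libraries, Hira stayed the lowest and the highest gene of each group did not change. That change of length does not recover reads that may be missing from Hira. Asf1b, Chaf1b, Daxx and Supt6 lay close together in the Ssrp1 controls, between 24.2 ± 0.804 for Supt6 and 29.1 ± 1.25 for Asf1b. Of these 4, only Supt6 and Asf1b had ranges that did not overlap there. In the Usp7_KD libraries these 4 genes spread from 10.3 ± 1.5 for Chaf1b to 47.5 ± 4.0 for Supt6.

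Further genes of histone supply and transcription were counted from 7 lists, chosen by function. Of 76 genes in these lists 75 were tested in each experiment. In the Ssrp1 knockout 4 were called higher and 0 lower, where 3.39% and 0.324% of all genes tested were, with a median log2 change of -0.03. Without Ssrp1_Control replicate 1 the count was 0. Of the 8 H2A-H2B chaperones tested 0 were called, with a median of 0.53, and the largest change was that of Npm1, a nucleolar histone chaperone, at 1.20 (adjusted p = 0.121). Of 12 genes of H3-H4 supply and replication 0 were called, with a median of 0.24. The acetyltransferase Hat1 had the largest change there, 0.98 (adjusted p = 0.0711), from 227 and 229 CPM to 449.8 and 449 CPM. Both Ssrp1_KO libraries were above both controls.

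Among the 9 H3.3 and CENP-A chaperones tested, the median change was 0.31. Atrx, the partner of Daxx, went from 37.3 and 57.4 CPM to 218 and 93.9 CPM, a change of 1.72 (adjusted p = 0.0407), while Daxx was not called. Among 11 elongation partners of FACT and Supt6, Cdc73 of the PAF1 complex rose by 1.54 (adjusted p = 0.0433), from 20.6 and 27.8 CPM to 93.1 and 48.0 CPM. Among 20 S-phase genes, Ccne2, cyclin E2, rose by 2.48 (adjusted p = 0.0192), from 3.22 and 3.00 CPM to 21.6 and 13.1 CPM, whereas 13 of the 20 had changes below 0. For Atrx, Cdc73 and Ccne2 both Ssrp1_KO libraries were above both controls and Ssrp1_KO 1 was the higher. Their GC content, 39.5% for Atrx, 36.8% for Cdc73 and 36.3% for Ccne2, is in the low range described for Nap1l1. In the knockout 0 of the list genes were called with the GC and length correction, and 6 with that correction and the replicate block together. Of the 5 H2A.Z chaperones 0 were called, and Srcap had the largest change, 0.50 (adjusted p = 0.699). Of 10 replacement histone variants 0 were called and 9 had changes below 0, with a median of -0.42. H2afx had the largest, -1.02 (adjusted p = 0.109), from 785 and 507 CPM to 276 and 363 CPM.

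In the Usp7 knockdown 0 of the 75 genes were called higher and 2 lower, where 2.36% and 0.628% of all genes tested were, with a median of -0.18, and both are linker histones among the replacement variants. H1fx fell by 1.59 (adjusted p = 0.0112), from 36.9 and 22.6 CPM to 10.3 and 9.50 CPM. H1f0 fell by 0.97 (adjusted p = 0.0310), from 117 and 103 CPM to 64.3 and 48.0 CPM. The Usp7_KD libraries were below the controls for both, and the 10 variants had a median of -0.30. Both calls belong to a count that changed with the libraries: it was 31 without Usp7_Control replicate 2, 1 without Usp7_KD replicate 1 and 0 without Usp7_KD replicate 2. Of the 20 S-phase genes 0 were called, but 19 had changes below 0, with a median of -0.35, and 14 were lower without overlap. Over all genes tested 8207 of 15915 had changes below 0, with a median of -0.017, and 23.4% were lower without overlap. Ccne1, cyclin E1, had the largest change, -0.77 (adjusted p = 0.0826), from 324 and 236 CPM to 169.9 and 159 CPM.

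Of the other lists in the Usp7 knockdown 0 genes were called. The largest changes were -0.49 for Npm1 (adjusted p = 0.352) among the H2A-H2B chaperones and -0.53 for Nasp (adjusted p = 0.230), a carrier of H3-H4. In the remaining lists they were 0.47 for Ubn2 (adjusted p = 0.383), a subunit of the Hira complex, 0.86 for Srcap (adjusted p = 0.337) and 0.27 for Ctr9 (adjusted p = 0.481) of the PAF1 complex. The list medians were -0.21 for H2A-H2B chaperones, -0.11 for H3-H4 supply, 0.15 for H3.3 and CENP-A chaperones, -0.19 for H2A.Z chaperones and 0.02 for elongation partners, beside -0.02 over all genes.

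**Figure D5:**
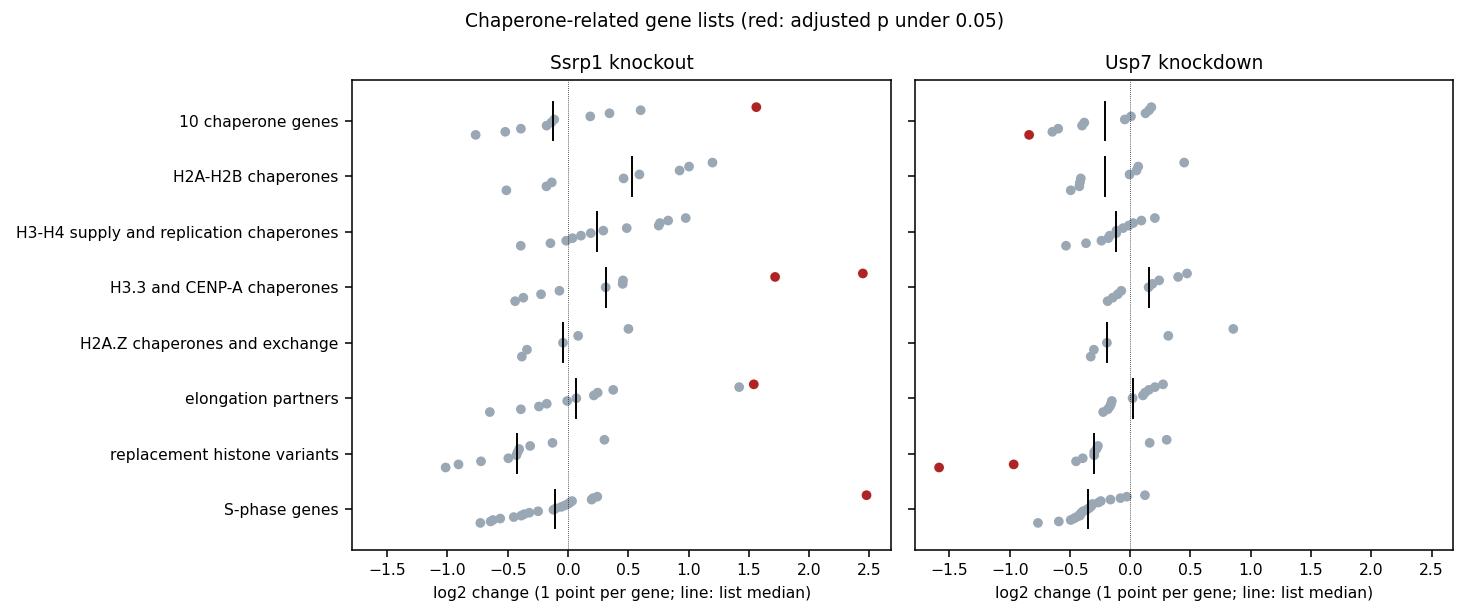
Log2 change of each tested gene in the members and in 7 chaperone-related lists, 1 point per gene, with list medians as lines and genes at an adjusted p under 0.05 in red. In the Usp7 knockdown 19 of 20 S-phase genes lie below 0 and none is red, and the replacement histone variants hold 2 red points, H1fx at -1.59 and H1f0 at -0.97.

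Between the 2 control groups 5 of the 76 genes were called higher in the Usp7 controls and 2 lower, where 3.92% and 4.06% of all genes tested were. The higher genes included Ccne2 (2.20), Atrx (1.58), Cdc73 (1.25) and Tonsl (0.86), a reader of newly replicated H4, and the lower ones were the variants H3f3a (-1.18) and H2afy (-0.84), as log2 differences. On the common scale Ccne2 had 3.51 and 3.13 CPM in the Ssrp1 controls, 22.3 and 13.5 CPM in the Ssrp1_KO libraries, 14.7 and 15.9 CPM in the Usp7 controls, against 14.5 and 15.5 CPM in the Usp7_KD libraries. The low group was thus the Ssrp1 controls, which the knockout comparison and the comparison of controls share. In the difference between the experiments Ccne2 was the only list gene called, at 2.45 (adjusted p = 0.0314).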

How the data were processed

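The authors deposited 2 tables of raw read counts, 1 per experiment with a row for each gene, and these counts were used unchanged. Per the submitters' processing notes the tools were cutadapt, HISAT2 and featureCounts with the build mm10. Not given in the sources used here are tool versions, annotation release, strand setting and how reads shared by several places or genes were counted. All 92 spike-in rows were at 0, and 67 gene identifiers had no entry in the GENCODE vM21 annotation (GRCm38, the assembly called mm10) that gave symbols, coordinates, exon length and GC content. Promoter sequences came from RefSeq on GRCm38.p6, which had an entry for all 10 members.

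Titles gave the groups, and every library was used. The 4 libraries of an experiment were fitted together in R 4.3.3 with edgeR 4.0.16: filterByExpr, TMM scaling, and the quasi-likelihood F test with Benjamini-Hochberg adjustment over all genes tested, called at an adjusted p under 0.05. CPM values use the TMM scale of the experiment, and a joint fit of 8 libraries gave the common scale, the difference between experiments, the comparison of controls and all levels per kilobase. Standard errors were derived from the log2 change and the F statistic. The steps were tested on simulated data with genes changed by 1, 2 or 3 on the log2 scale. A change of 1 was called for 13.4% of such genes in the knockout and 74.6% in the knockdown. It was called for 2.99% in the difference between experiments and 22.4% in the comparison of controls. Changes of that size can thus go uncalled. Alternatives were DESeq2 1.42.0, its size factors in edgeR, no filter, the replicate number as a block, offsets for GC content and exon length, the joint fit, and leaving out each library. The members and the gene lists were chosen with earlier results of these data known. Members and Usp7 were always named; of each list the called genes were named, at most 3 per direction, or the gene with the largest change among those with a mean CPM of at least 5. The promoter motifs and the use of principal transcript lengths were chosen after the results were seen. The values of 1 list gene are not reported here.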

Additional observations from a re-analysis of the deposited data

Results flagged for a closer look

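The change of Nap1l1 differed between the experiments: knockout change minus knockdown change was 2.17 on the log2 scale in the joint fit (SE 0.39, edgeR adjusted p = 0.0295). The separate fits of the experiments gave a knockout change of 1.56 and a knockdown change of -0.65. Both Ssrp1_KO libraries were above their controls, and both Usp7_KD libraries were below theirs. The GC content of Nap1l1 (39.8%) and the higher level in the Usp7 controls than in the Ssrp1 controls (a difference of 0.98) stand beside this result. The GC and length correction gave 1.46 (adjusted p = 0.0852), and with the replicate block as well it gave 1.45 (adjusted p = 0.0224).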

How the results depend on the processing

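The main counts were 1 member called in each of the 4 comparisons, 4 chaperone-related genes in the knockout and 2 in the knockdown. Chaperone-related stands for all 76 genes of the 7 lists, S-phase genes, elongation partners and histone variants included. Both knockdown calls were the linker histones H1fx and H1f0. Over all genes, 585 were called in the knockout, 476 in the knockdown, 171 for the difference between experiments and 1361 between control groups. The causes of the shifts below were not tested. With no filter on low counts, 0 members were called in the knockdown and 2 between control groups, chaperone-related calls were 8 and 0 in the knockout and knockdown, and genes called were 1497, 100, 945 and 2539 in that order. With the correction for GC content and length, 0 members were called in the knockout, the difference and the control comparison, 0 chaperone-related genes and 307 genes in the knockout, and 759 genes in the knockdown. In the joint fit, 0 members, 0 chaperone-related genes and 78 genes were called in the knockdown, and 7 and 1314 in the knockout. DESeq2 called 2 members in the knockdown and 2 between control groups, 8 chaperone-related genes in the knockout, and 1099, 649 and 2230 genes in the knockout, the difference and the control comparison. With DESeq2 size factors in edgeR, 0 members were called between control groups.

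Same-numbered libraries deviated from their group means together only weakly, with correlations of 0.178 over 15757 genes in the Ssrp1 experiment and 0.163 over 15915 genes in the Usp7 experiment. With 2 numbers per experiment and no label for what they share, whether same-numbered libraries share more than a number cannot be told. With the replicate number as a block, 2 members were called in the knockdown and 0 between control groups, 5 chaperone-related genes in the knockdown, and 988, 1471, 525 and 856 genes in the order above. With the block and the GC and length correction together, 0 members were called in the knockout, 3 in the knockdown and 0 between control groups, with 6 chaperone-related genes in the knockout, 11 in the knockdown and 1346, 1787, 365 and 769 genes.

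Leaving out 1 library at a time gave 0 to 2 members in the knockout, 0 to 5 in the knockdown, 0 to 2 for the difference and 0 to 2 between control groups. Chaperone-related calls ranged from 0 to 6 in the knockout and 0 to 31 in the knockdown, and genes called from 20 to 1884, 42 to 3770, 1 to 1109 and 135 to 2815. The knockout change of Ssrp1 ranged from -1.94 to -0.15.

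Some uncalled changes turned sign. In the knockout, the GC and length correction gave -0.088 for Supt16, 0.097 for Supt6, 0.075 for Chaf1a, -0.57 for Asf1a and 0.0084 for Daxx, and with the block -0.094, 0.072, 0.070 and -0.56 for the first 4. For the difference it gave -0.11 for Supt16, 0.25 for Chaf1a and 0.32 for Hira, and with the block -0.12, 0.23 and 0.16. Between control groups it gave -0.52 for Asf1a and 0.21 for Asf1b, with the block -0.34 and 0.32, and the block alone gave 0.074 for Asf1b. The knockdown change of Asf1b was -0.0032 with DESeq2 size factors, -0.0063 with no filter and -0.0094 with DESeq2, and the difference of Supt16 was -0.0026 and -0.0069 with DESeq2 size factors and DESeq2. Leaving out 1 library turned the sign within these ranges. In the knockout they were -0.34 to 0.026 for Supt6, -1.01 to 0.0081 for Hira and -0.60 to 0.11 for Daxx. In the knockdown they were -0.0083 to 0.27 for Supt16, -0.16 to 0.076 for Chaf1a, -0.070 to 0.081 for Asf1b and -0.072 to 0.42 for Daxx. For the difference they were -1.57 to 0.16 for Ssrp1, -0.17 to 0.14 for Supt16, -0.32 to 0.019 for Chaf1a, -0.041 to 0.50 for Chaf1b and -0.62 to 0.33 for Hira. Between control groups they were -0.42 to 0.58 for Asf1a, -0.15 to 0.0062 for Asf1b and -0.63 to 0.069 for Hira. With raw library totals or TPM in place of TMM-scaled values, the order of the members by level per kilobase changed only in the Ssrp1_KO libraries, where Supt16 and Ssrp1 exchanged ranks 2 and 3. Every count rests on 2 libraries a group.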

Other observations

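The gap between the 2 libraries labelled Ssrp1_KO, as replicate 2 minus replicate 1 on the log2 scale, was -1.73 for Ssrp1, -0.94 for Hira, -0.64 for Daxx, -0.60 for Asf1a, -0.43 for Nap1l1, -0.30 for Supt6, -0.22 for Supt16 and -0.21 for Chaf1a. It was above 0 for Chaf1b, at 0.50, and for Asf1b, at 0.22. The median size over all genes tested was 0.40, so 6 of the 10 members had a gap larger than that median. Primitive endoderm markers summed to 55.0 and 60.8 CPM in the Ssrp1 controls, 102 and 121 CPM in the Ssrp1_KO libraries, and 70.0 to 85.4 CPM in the Usp7 experiment.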
